A study of Oryctolagus cuniculus with 6 samples.

Results

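Photoreceptor transcription factors and disc proteins were compared between normal rabbit retina and retina from a rabbit model of proliferative vitreoretinopathy (PVR). The genes were chosen by name for their role in photoreceptors: the transcription factors CRX, NRL, NR2E3, OTX2, RORB, MEF2D and ESRRB, and the outer-segment disc proteins PRPH2, ROM1 and PROM1. Of these 10 genes, 9 were matched by symbol to a row among the 28788 genes in the files, 6 of them transcription factors and 3 disc proteins. CRX was not matched and was not analysed here. The series holds 3 normal and 3 PVR retina samples from adult rabbits, whose strain, sex and time of collection are not given in the sources used here. PVR was produced by puncturing the sclera, withdrawing part of the vitreous body and injecting platelet-rich plasma into the vitreous cavity, and no vehicle or sham group is part of the series. The labels do not say whether the 3 samples of a group came from separate animals, so the p-values measure the spread between these samples, which may be partly technical.

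Rods and cones detect light in the outer segment, a stack of membrane discs that is renewed throughout life. OTX2 and RORB act early in the photoreceptor lineage, NRL commits a precursor to the rod fate, and NR2E3 holds cone genes silent in rods. MEF2D and ESRRB act later, in the maintenance of mature photoreceptors. PRPH2 and its relative ROM1 are tetraspanins that form the curved rim of each disc, whereas PROM1 (prominin-1) sits on the newly forming discs at the base of the outer segment. Mutations in several of these genes cause inherited retinal degeneration.

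Among the 9 genes, PROM1 alone passed the adjusted threshold in the test of all 6 samples together, and it was higher in PVR by 1.49-fold. Its adjusted p was 0.0438 (edgeR), and with 1 sample left out it passed only without PVR replicate 3. NRL, ROM1 and ESRRB had lower values in every PVR sample after normalisation, with fitted ratios of PVR to normal from 0.767 to 0.797, but none of the 3 passed the adjusted threshold. NR2E3, OTX2, RORB and MEF2D had overlapping groups. The row named PRPH2 could not be read as the level of that gene, because a second row that RefSeq gives to the same gene held most of the summed reads, in shares that differed between samples. Genes were tested with edgeR's quasi-likelihood method and Benjamini-Hochberg adjustment over 18697 genes with enough counts, and a gene was called at an adjusted p under 0.05. By this rule 1.7% of all genes tested were called (1.09% higher and 0.615% lower in PVR), against 1 of the 9 genes described here, which is too few genes for that share to be read as different. The study's added threshold of a log2 fold change beyond 1 was passed by 1.01% of all genes tested and by none of the 9 (0 with edgeR, and 0 also with DESeq2 and limma-voom). At an unadjusted p under 0.05 there were 4 of the 9, against 21.2% of all genes, and 3 of the 9 had such a p with lower values in PVR, against 9.94% of all genes.

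The samples had between 31904593 and 43035080 counted reads, and the counts of the 9 genes lay between 1430 and 121277, so that counting error was small beside the spread between samples. GNGT1, a subunit of rod transducin, had a mean FPKM of 2945 over the 6 samples; rod RNA was thus abundant in these samples. Normal replicate 2 carried lens transcripts, with a summed level of 10 lens genes of 31276 CPM (counts scaled to the same total of counted reads in each sample) against 15.1 CPM in the lowest normal sample and 285 to 318 CPM in PVR. The calls and directions of the 9 genes that changed without this sample or normal replicate 3 are given below.

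**Figure D1:**
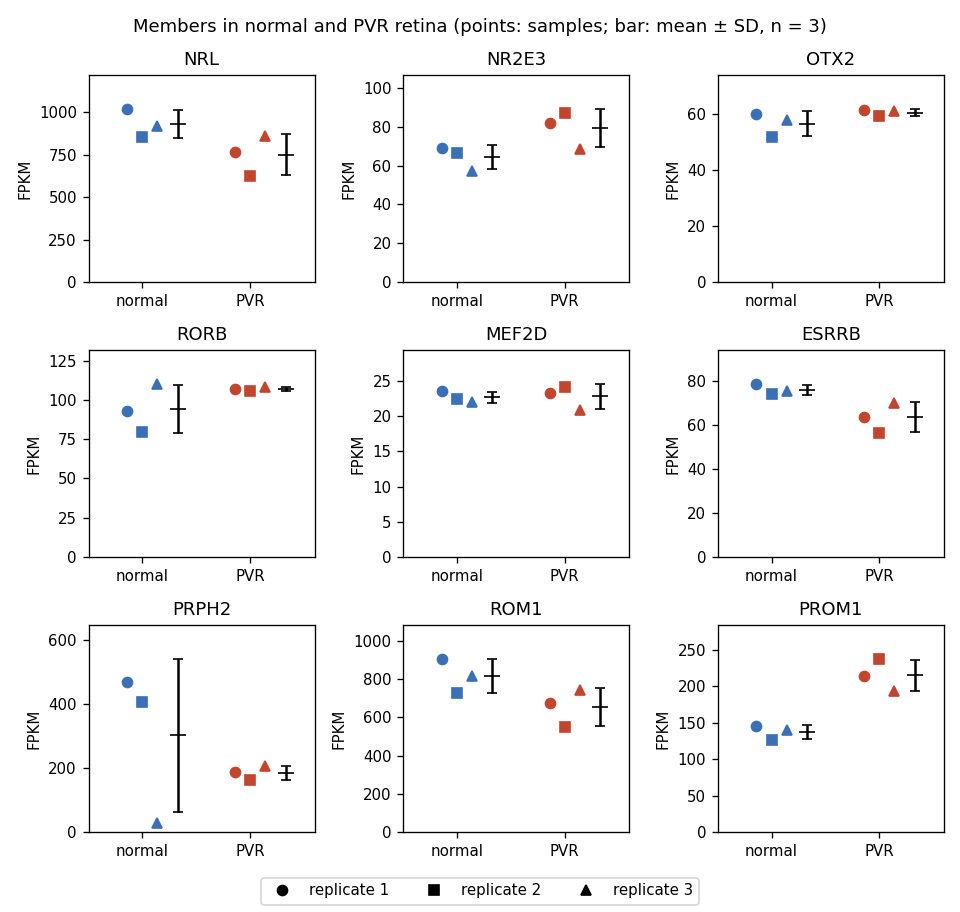
FPKM (counts scaled by gene length and by the counted reads of the sample) of the 9 genes on the vertical axes, in 3 normal (blue) and 3 PVR (red) samples, with the marker giving the replicate and the black bar the mean ± SD (n = 3). The PROM1 points of PVR (193 to 237) lie above all normal points (127 to 146), and the PRPH2 point of normal replicate 3 (29.6) lies far below the other normal points.

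Per unit of length the 9 genes spanned a wide range, which is a comparison of levels in FPKM. PRPH2 is left out of this order, since its row did not hold all of its reads. In the normal samples NRL was highest with an FPKM of 930 ± 83.0 (SD, n = 3), followed by ROM1 with 816 ± 86.9 (SD, n = 3), and the ranges of these neighbours overlapped. PROM1 followed at 137 ± 9.79, RORB at 94.0 ± 15.2, ESRRB at 75.8 ± 2.27, NR2E3 at 64.4 ± 6.22, OTX2 at 56.6 ± 4.44 and MEF2D at 22.7 ± 0.795 (SD, n = 3 for each). Of these neighbours in the normal samples, NR2E3 and OTX2 overlapped and the others did not. In PVR the order was NRL, ROM1, PROM1, RORB, NR2E3, ESRRB, OTX2 and MEF2D. NR2E3 thus stood above ESRRB in PVR, with means of 79.3 and 63.4 FPKM, and below it in the normal samples, although the PVR ranges of the pair overlapped. These levels depend on the length given to each gene.

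OTX2, a homeobox factor that bipolar cells and the pigment epithelium also express, had 165, 145 and 156 normalised CPM in the normal samples (CPM scaled by edgeR's TMM factors, the scale of the test). The PVR samples had 161, 153 and 162. All PVR values fell inside the normal range, and the fitted log2 fold change was 0.03 (standard error, SE, 0.08, adjusted p = 0.857). Its sign was not stable and became -0.01 without normal replicate 2. Some pigment epithelium genes differed in the same samples. The summed level of 14 such genes was 677 to 912 CPM in normal retina and 497 to 526 CPM in PVR, with 3 of 13 tested genes lower (RLBP1, LRAT and TTR), 4 of the 13 with a positive log2 fold change and none at 0 in all samples. RGR and RLBP1 had the most counts of the 13 in every sample, and both are also in the Mueller glia list below. These lists are thus not separate. Without normal replicate 2 the adjusted p was 0.0916 for RLBP1, 0.104 for LRAT and 0.0772 for TTR (edgeR), and 0 of the list were called there, without normal replicate 1, without PVR replicate 1 or without PVR replicate 2. Their part in the OTX2 value was not tested.

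RORB, a retinoid-related orphan receptor that lies upstream of NRL, had 673, 593 and 782 normalised CPM in normal retina and 742, 721 and 759 in PVR. The PVR values again lay within the normal range, with a log2 fold change of 0.12 (SE 0.11, adjusted p = 0.578). MEF2D, a MADS-box factor that works with CRX at photoreceptor enhancers, had 375, 365 and 344 normalised CPM in normal retina and 354, 362 and 322 in PVR. Only PVR replicate 3 was below all normal samples. Its log2 fold change was -0.06 (SE 0.09, adjusted p = 0.704), and on the log2(FPKM + 1) scale it was 0.01.

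NRL, the leucine-zipper factor of rods, had 3185, 2738 and 2818 normalised CPM in the normal samples. In PVR it had 2291, 1831 and 2616. Every PVR sample was below every normal sample on this scale, replicate 3 by the least. The fitted difference was -0.38 on the log2 scale (SE 0.14, adjusted p = 0.187 from edgeR). On the FPKM scale, which has no TMM factor, the groups overlapped, since PVR replicate 3 had 863 and normal replicate 2 had 853. A bulk sample cannot tell fewer rods from less NRL RNA in each rod.

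ESRRB, an orphan nuclear receptor linked to the energy supply and survival of rods, had the smallest relative spread of the 9 genes in the normal samples, with 341, 330 and 320 normalised CPM. The PVR samples had 264, 231 and 295. The groups did not overlap on either scale. In the edgeR fit the log2 fold change was -0.33 (SE 0.11, adjusted p = 0.152 from edgeR), and the adjusted p lay between 0.0644 and 0.404 over the 15 other settings tried.

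NR2E3, the nuclear receptor that NRL switches on in rods, had values that lay higher rather than lower in PVR. It had 121, 119 and 98.1 normalised CPM in normal retina and 137, 143 and 116 in PVR. PVR replicates 1 and 2 were above all normal samples and PVR replicate 3 was not. With edgeR its log2 fold change was 0.23 (SE 0.12, adjusted p = 0.301). The ratio of NR2E3 to NRL within a sample, which does not depend on depth, was 0.0681, 0.0779 and 0.0625 of the FPKM in normal retina and 0.107, 0.140 and 0.0794 in PVR. All 3 PVR ratios were above all normal ratios, the lowest PVR ratio by little, and the mean log2 ratio differed by 0.62 (two-sided exact permutation test, p = 0.1, the smallest that 3 samples against 3 allow, and 0.3 after adjustment over 3 ratios).

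**Figure D2:**
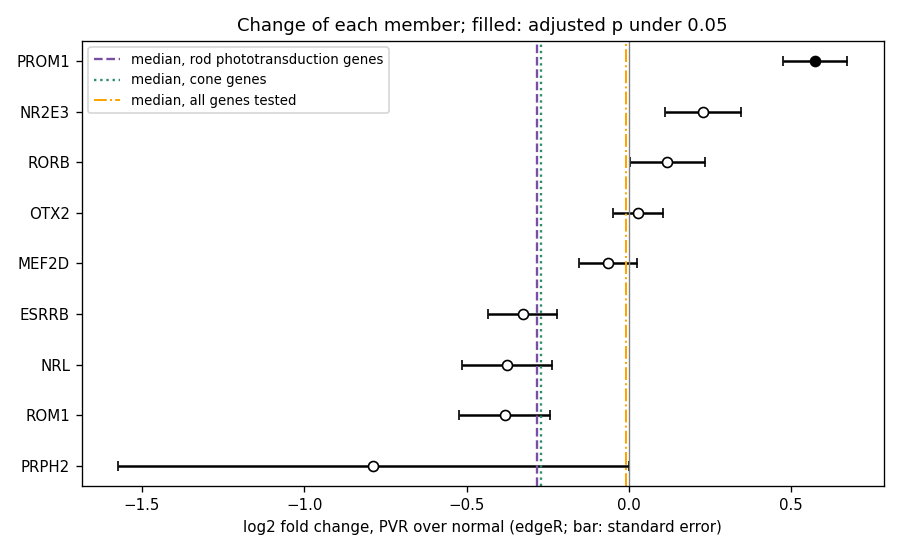
Fitted log2 fold change of PVR over normal (horizontal axis, edgeR) of each of the 9 genes, with bars for the standard error and a filled point for an adjusted p under 0.05. PROM1 is the filled point at 0.57, ESRRB, NRL and ROM1 lie between -0.33 and -0.38 near the medians of the rod (-0.28) and cone (-0.27) gene lists, and PRPH2 has a standard error of 0.79.

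ROM1, the rim tetraspanin that pairs with PRPH2, had 1565, 1296 and 1387 normalised CPM in normal retina and 1115, 893 and 1251 in PVR. The groups did not overlap on this scale, but they did in FPKM, where PVR replicate 3 had 745 and normal replicate 2 had 729. ROM1 had a fitted log2 fold change of -0.38, close to that of NRL (SE 0.14, adjusted p = 0.185 from edgeR). ROM1 varied with NRL and ESRRB from sample to sample. Over the 6 samples Pearson's r of the log2 CPM was 0.997 between NRL and ROM1, 0.975 between NRL and ESRRB and 0.962 between ESRRB and ROM1. These values are descriptions over samples that share their libraries, depth and group difference. In all, 3 of the 9 genes had lower groups that did not overlap and 1 had a higher one. Over all genes tested, 28.0% had groups that did not overlap, 14.6% lower and 13.4% higher in PVR.

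PROM1 differed in direction from ROM1. It had 600, 535 and 562 normalised CPM in the normal samples. In PVR it had 840, 916 and 768, all above the normal range. The FPKM mean rose from 137 ± 9.79 in normal retina to 215 ± 21.9 in PVR (SD, n = 3 each). This was a log2 fold change of 0.57 (SE 0.10, adjusted p = 0.0438 from edgeR). This call was close to the threshold. The size of the change was steady, from 0.51 to 0.64 over 15 other settings, whereas the adjusted p passed 0.05 in 8 of them. With a sample left out it was 0.0967 without normal replicate 1, 0.128 without normal replicate 2, 0.0596 without normal replicate 3, 0.246 without PVR replicate 1 and 0.106 without PVR replicate 2, and it stayed under 0.05 without PVR replicate 3. PVR replicate 2, with the most PROM1, had the least NRL and ROM1, and Pearson's r over the 6 samples was -0.83 between PROM1 and NRL and -0.82 between PROM1 and ROM1, again as a description. The ratio of PROM1 to ROM1, chosen after these values were seen and given without a test, was 0.162, 0.174 and 0.171 of the FPKM in normal retina and 0.318, 0.433 and 0.259 in PVR.

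PRPH2, the main rim protein of rod and cone discs, had 22049, 20088 and 1430 counts in the normal samples. In PVR it had 7186, 6333 and 10754 counts. Normal replicate 3 was thus far below all other samples, while the other normal samples were above all PVR samples. For the named row the log2 fold change was -0.79 with a standard error of 0.79 (adjusted p = 0.588 from edgeR). Without normal replicate 3 it was -1.32 (adjusted p = 0.00758 from edgeR), and in that test 2.9% of all genes were called.

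The files also hold a row given only as LOC127489419, and RefSeq names that gene number PRPH2 in the assembly mOryCun1.1. This is a later assembly than the one the study names, and it was used for names only. That row had 35413, 31972 and 132377 counts in normal retina and 48005, 37313 and 78944 in PVR. Normal replicate 3, lowest in the row named PRPH2, was highest here. The second row held 61.6%, 61.4% and 98.9% of the summed reads in normal retina and 87.0%, 85.5% and 88.0% in PVR. The division was alike in normal replicates 1 and 2, and alike in the 3 PVR samples, and it differed between these sets and normal replicate 3. The summed reads were 1474, 1275 and 3339 CPM in normal retina and 1730, 1349 and 2084 CPM in PVR. On this sum the log2 fold change was -0.29 (SE 0.35, adjusted p = 0.654 from edgeR), and without normal replicate 3 it was 0.25 (adjusted p = 0.476). The decrease seen in the named row without normal replicate 3 was therefore not present in the sum, which was chosen after the values were seen. Of the 9 genes, PRPH2 alone had such a second row by RefSeq's gene numbers.

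**Figure D3:**
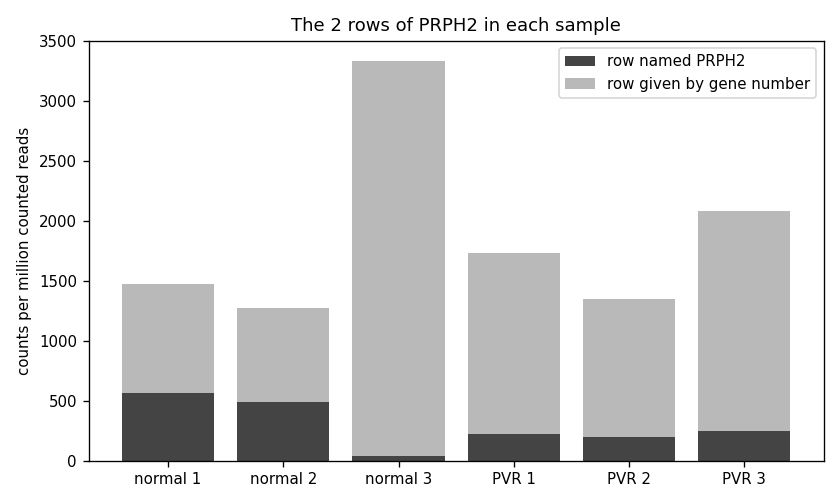
CPM (vertical axis) of the row named PRPH2 (dark) and of the row given by gene number that RefSeq names PRPH2 (light), stacked for each of the 6 samples. The dark part is 35.7 CPM in normal replicate 3 and 566 CPM in normal replicate 1, and the whole bar is highest in normal replicate 3 (3339 CPM).

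Ratios that use the row named PRPH2 carried the same split. The FPKM ratio of PRPH2 to ROM1 was 0.520, 0.560 and 0.0363 in normal retina and 0.277, 0.297 and 0.278 in PVR (mean log2 ratio, exact permutation test, two-sided, p = 1.0). The ratio of PROM1 to PRPH2 was 0.311, 0.310 and 4.72 in normal retina and 1.15, 1.46 and 0.931 in PVR (same exact test, p = 0.8). The PVR ratios lay between normal replicate 3 and the other normal samples in both cases. With both rows of PRPH2 summed, the ratio of PRPH2 to ROM1 counts was 0.964, 1.03 and 2.41 in normal retina and 1.51, 1.45 and 1.65 in PVR.

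**Figure D4:**
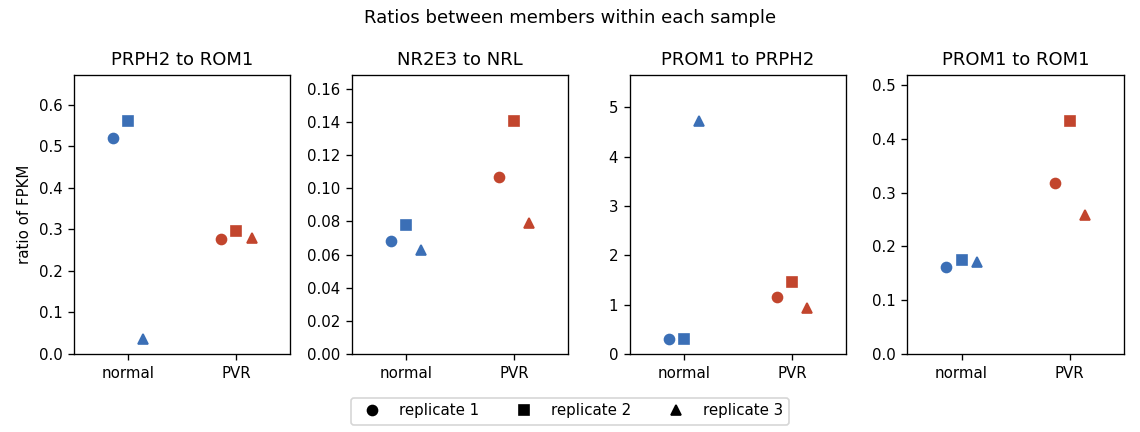
Ratio of the FPKM of 2 genes within each sample (vertical axes from 0), in normal (blue) and PVR (red) samples with the marker giving the replicate. NR2E3 to NRL and PROM1 to ROM1 are higher in every PVR sample than in every normal sample, and both ratios with PRPH2 have normal replicate 3 on the far side of the PVR samples.

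Genes around these 10 were taken from fixed lists. Of 38 tested regulators of photoreceptor and retinal fate, 1 was called, SAMD7, a rod protein of the Polycomb type that works beside CRX to keep other programmes silent. SAMD7 had an FPKM of 79.1, 71.0 and 67.2 in normal retina and 136, 150 and 134 in PVR, with no overlap. Its log2 fold change was 0.88 (SE 0.10, adjusted p = 0.0131 from edgeR), and the adjusted p was 0.106 without PVR replicate 1 and under 0.05 in the 14 other settings. NEUROD1, a basic helix-loop-helix factor needed for photoreceptor survival, had a log2 fold change of 0.32 (adjusted p = 0.156) and was not called. The median log2 fold change of this list was -0.02, against -0.01 over all genes tested.

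Over all genes, edgeR called 318 and DESeq2 called 1756, and 21.2% of those tested with edgeR had an unadjusted p under 0.05. Outer-segment structure and disc genes had 5 of 25 called with DESeq2. Of the 24 tested with edgeR and limma-voom 0 were called, and 7 had an unadjusted p under 0.05 with edgeR. Their median log2 fold change was -0.10, with 11 positive and 13 negative values. RP1, which organises the axoneme of the outer segment, had -0.13, and UNC119, a carrier of transducin, had -0.49 (adjusted p = 0.551 and 0.0849). Of 20 rod phototransduction genes, 0 were called with edgeR and limma-voom and 2 with DESeq2, and 6 had an unadjusted p under 0.05. Of the 20, 19 had a negative log2 fold change and 9 had lower groups that did not overlap, against 14.6% of all genes tested. The median of the 20 was -0.28. With each sample left out in turn it lay between -0.18 (without normal replicate 1) and -0.33, with 18 or 19 negative values. GNGT1 had -0.33 (adjusted p = 0.288) and SAG, the arrestin of rods, had -0.10 (adjusted p = 0.685). GNB1 of this list also had a second row by RefSeq's gene numbers. That row held 75110 counts beside 86882 in normal replicate 1, and 42681 beside 49401 in PVR replicate 1. Of 12 cone genes 0 were called with edgeR, limma-voom and DESeq2, and 4 had an unadjusted p under 0.05, with 11 negative values and a median of -0.27.

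Markers of other cells that the samples could hold were read in the same way. The counts below stand beside 1756 genes called with DESeq2 and 21.2% of all genes at an unadjusted p under 0.05 (edgeR). Bipolar, amacrine and horizontal, and ganglion cell markers had 0 called among 12, 14 and 10 tested genes with edgeR. Their medians were -0.02, -0.05 and -0.20. DESeq2 called 0, 1 and 0, and 0, 3 and 0 had an unadjusted p under 0.05 (edgeR). The gene called with DESeq2 was CHAT, whose reads were also divided over 2 rows. THY1 and SLC18A3 of these lists had a second row as well. Of 12 Mueller glia markers CLU was higher and GLUL and RLBP1 were lower with edgeR. RLBP1 and RGR are also in the pigment epithelium list. The Mueller glia median was -0.10, with 5 called with DESeq2 and 6 at an unadjusted p under 0.05 (edgeR). The calls of CLU and GLUL held in 14 of 15 other settings, and that of RLBP1 held in 10. All 10 microglia and macrophage markers had positive log2 fold changes with a median of 0.90, and 0 were called with edgeR, 4 with DESeq2 (PTPRC, P2RY12, CD68 and ITGAM) and 6 at an unadjusted p under 0.05. Their summed level was 36.0 to 76.4 CPM in normal retina and 94.4 to 131 CPM in PVR. All 9 tested oligodendrocyte markers had negative log2 fold changes, with a median of -2.18. Lower groups that did not overlap were found for 7 of them, against 14.6% of all genes tested. Of the 9, 2 were called lower with edgeR (MAG and MOBP, called in 6 and 8 of 14 other settings) and 0 with limma-voom. All 9 had an unadjusted p under 0.05 with edgeR. DESeq2 tested 11 genes of this list and called 8 lower. With 1 sample left out, edgeR called 6 of 11 tested when it was normal replicate 1, 3 of 9 when it was normal replicate 3, 1 of 11 when it was PVR replicate 3, and 0 when it was any of the other samples. The 9 tested lens markers had 0 called with edgeR and DESeq2 and 1 at an unadjusted p under 0.05, with a median log2 fold change of -5.44. Without normal replicate 2 the direction turned, with 6 of the 9 called higher in PVR and a median of 4.18. The part of these cells in the PROM1 difference was not tested.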

How the data were processed

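Polyadenylated RNA of 3 normal and 3 PVR rabbit retinas was sequenced. The study names HISAT2 for alignment to OryCun2.0 and htseq-count for counting per gene, and the labels also name fastp. Raw counts were deposited without normalization. The authors also deposited FPKM values, which rest on the same counts (implied gene lengths agreed within a relative 4.24e-09). The strand setting and annotation release are not given in the sources used here. Rows such as LOC127489419 carry gene numbers that RefSeq lists in mOryCun1.1, and which annotation was used for counting was not established.

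Columns were matched by name. The tests were run with edgeR 4.0.16 under R 4.3.3 (default filter on low counts, TMM factors, quasi-likelihood test, condition as the single term, Benjamini-Hochberg adjustment over 18697 genes). The standard error is the log2 fold change divided by the square root of F. Ratios were tested by exact permutation (two-sided, SciPy 1.17.1). The planned ratio of NRL to CRX was not computed, as CRX was not matched. Alternatives were DESeq2 1.42.0, limma 3.58.1 (voom, log2(FPKM + 1), log2(FPKM + 0.1)), RLE and upper-quartile factors, other filters, leaving out each sample, and a replicate block. The test was checked on simulated counts. Tables used Python 3.11.15 and pandas 2.3.3, and figures matplotlib 3.10.9.

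The genes and 12 lists of related genes were chosen with earlier results of these data known. Of 194 list entries, 6 were matched through RefSeq's gene numbers (assembly mOryCun1.1, used for names only) and 6 were not matched. Genes named are the 9 analysed, and from each list up to 3 called genes in each direction or, where none was called, the 2 of highest mean FPKM, of which those of the photoreceptor lists are printed; NEUROD1, SAG and the markers given only as counts were added after their values were seen. The 5 genes most like PRPH2 across samples were also named by rule, which could not be applied to CRX. Depth was 31904593 to 43035080 counted reads per sample. The western blot was not used here. Some results are not reported here.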

Additional observations from a re-analysis of the deposited data

How the results depend on the processing

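Over 15 alternatives for each of the 9 genes, 122 of 135 values kept their direction and their side of the threshold, 5 changed sign, 7 lost the call (all PROM1) and 1 gained it (PRPH2 without normal replicate 3, log2 fold change -1.32). The sign changes were OTX2 without normal replicate 2 (range -0.013 to 0.077 with a sample left out), MEF2D on log2(FPKM + 1) and log2(FPKM + 0.1) (0.0056 and 0.0057), and PRPH2 on the same scales (0.040 and 0.049). Summing both rows of PRPH2 without normal replicate 3 also turned its sign (0.25). The number of the 9 genes called was 0 in place of 1 on log2(FPKM + 1) and with the replicate block, and 0 to 1 with a sample left out. It was 1 with both rows of PRPH2 summed and 0 to 1 when a sample was left out as well. Over all genes, 318 were called with edgeR, 1756 with DESeq2 and 92 with the replicate block, and 22 to 650 with a sample left out, fewest without PVR replicate 1. Of the listed genes 8 were called, against 31 with DESeq2, 4 with limma-voom, 4 on log2(FPKM + 1), 5 on log2(FPKM + 0.1), 3 with the replicate block and 0 to 11 with a sample left out. The log2 difference of PRPH2 to ROM1 went from 0.37 to -0.93 without normal replicate 3 (range -0.93 to 1.05), that of PROM1 to PRPH2 from 0.59 to -0.062 and -0.063 without normal replicates 1 and 2 (range -0.063 to 1.90), and that of NR2E3 to NRL stayed between 0.41 and 0.83. Whether equal replicate numbers mark paired samples is not known. The correlation of deviations was -0.01, 0.07 and 0.04 for equal numbers and -0.08 to 0.04 for unequal numbers. With 3 samples in each group these values cannot tell paired from unpaired samples. With the replicate block PROM1 had an adjusted p of 0.105 (edgeR). The cause of the other changes was not tested.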

Other observations

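Over the 9507 other genes with a symbol and a mean log2 CPM of at least 3, the 5 whose log2 CPM across the 6 samples was most like that of the row named PRPH2 were MON1B, PXDNL, GABRB1, RARA and NCBP1, with Pearson's r from 0.981 to 0.988. This likeness is given as a description with n = 6, and its dependence on the low value of normal replicate 3 was not tested.

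The division of PRPH2 reads was not the only one of its kind. In normal replicate 3, 16 rows were at least 5-fold below every other sample where all other samples were above 5 CPM, and 10 of these had a symbol. Of the 10, 5 had a second row by RefSeq's gene numbers (ANKRD27, ERCC6, PDCD5, PRPH2 and SRP68), and in all 5 the second row was highest in normal replicate 3. ANKRD27 had 3.17 CPM there against 36.4 and 39.0 CPM in the other normal samples, whereas its second row had 61.3 CPM against 7.18 and 5.02 CPM. PVR replicate 2 had 9 such low rows, PVR replicate 3 had 7, normal replicate 2 had 1, and normal replicate 1 and PVR replicate 1 had 0. In the files, 136 symbols had both a row of their own and a row by gene number. These counts were made after the PRPH2 values were seen, and the reason for the division was not tested.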
